A study of Homo sapiens with 6 samples.

Results

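The genes for mitochondrial ribosomal proteins were followed in HEY, an established line of human ovarian cancer cells, after an siRNA against CCNL2. A gene counted as a member when its name in the deposited count table was MRPL or MRPS, a number and at most 1 letter from A to D. This gave 78 of 60835 distinct gene names, 49 MRPL genes (large subunit by name) and 29 MRPS genes (small subunit by name). The 3 siCCNL2 libraries came from HEY cells that received an siRNA against CCNL2, the gene of cyclin L2, and the 3 siNC libraries from HEY cells with a control siRNA. The treatment text, 48 h with the CCNL2 siRNA, is identical in siNC entries, and the controls are assumed to have had the same time. All cells grew in DMEM with serum and antibiotics, and the data describe 1 cell line.

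The mitochondrial ribosome translates the few proteins that mitochondrial DNA encodes, all of them hydrophobic subunits of the respiratory chain and the ATP synthase. Its proteins are encoded in the nucleus, made in the cytosol and imported, whereas its 12S and 16S ribosomal RNAs are transcribed from mitochondrial DNA. Some of its proteins have counterparts in the bacterial ribosome, and others were added in the mitochondrial lineage. The large subunit holds the peptidyl transferase centre and the exit tunnel, which is docked at the inner membrane, and the small subunit binds the messenger RNA.

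Total counts were 13596286 to 18095529 in siCCNL2 libraries and 15771604 to 16934044 in siNC libraries. Nothing in the labels tells separate cultures from repeat libraries of 1 culture, and p-values here rest on the spread among these 6 libraries, possibly technical. Log2 CPM values correlated more closely within a group (r = 0.991 to 0.992) than between groups (r = 0.983 to 0.986). CCNL2 stood at 203, 182 and 186 CPM (read counts scaled to library size with TMM factors) in siCCNL2 libraries, against 261, 267 and 246 CPM in siNC libraries, a fall of 26.4% in mean CPM. Of 12 ovarian cancer line markers, 9 were tested. KRT7, KRT8, KRT18, PAX8 and WT1 were called lower and none higher. This is 55.6% of the tested markers, against 33.6% of all tested genes called and 16.5% called lower. VIM averaged 1495 CPM in siCCNL2 and 1475 CPM in siNC libraries, and MUC16, CDH1 and FOLR1 had at most 7 counts in any library. Of 10 blood, endothelial and fibroblast markers, PTPRC, CD3E, CD68, HBB, DCN and LUM had at most 9 counts in any library. The 10 genes summed to 638 to 874 counts in siCCNL2 and 1829 to 2038 counts in siNC libraries, almost all of it CDH5. CDH5 averaged 47.2 CPM in siCCNL2 and 114 CPM in siNC libraries and was called lower (log2 fold change -1.28, adjusted p = 5.48e-14 by edgeR). PECAM1, at 0.915 CPM in siCCNL2 and 2.38 CPM in siNC libraries, was also called lower (-1.41, adjusted p = 0.0013 by edgeR). VWF, the last of the 3 tested, was not called (66.7% called, against 33.6% of all tested genes). The part of these marker differences in the results below was not tested.

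The members were called about as often as other genes and in both directions. Calls were made by edgeR's quasi-likelihood test wherever p, adjusted by Benjamini and Hochberg's method across 15346 tested genes, was below 0.05. Of the 76 members that passed the filter on low counts, 24 were called (31.6%), while 33.6% of all tested genes were. There were 13 members higher (17.1%, against 17.2% of all tested genes) and 11 lower (14.5%, against 16.5%), and without siCCNL2 replicate 1 the members called lower were 7. The median log2 fold change, siCCNL2 over siNC, was 0.02 over the tested members and 0.0023 over all tested genes. Single members ran from -0.42 to 0.41. The median size of the log2 fold change, whatever its sign, was 0.14 in members and 0.19 in all tested genes, and among called genes 0.27 in members and 0.33 overall. In bulk RNA, fewer cells with a transcript and less transcript per cell cannot be told apart.

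The medians of the subunits lay close together. Of 48 tested MRPL genes, 9 were higher, 9 were lower and 30 were not called (37.5% called). Of 28 tested MRPS genes, 4 were higher, 2 were lower and 22 were not called (21.4% called), and the count of lower ones was 1 without siCCNL2 replicate 1 or 3 or siNC replicate 1 or 3. The large subunit's count stood above the 33.6% of all tested genes and the small subunit's below it, and this difference was not tested. The median log2 fold change was 0.02 in MRPL genes and 0.03 in MRPS genes, and with upper-quartile factors -0.0023 and 0.01, so the MRPL median has no settled sign. In 31 of the 76 members (40.8%, against 43.9% of all tested genes) the siCCNL2 and siNC libraries did not overlap in CPM, and 7 of these were not called: MRPL4, MRPL18, MRPL30, MRPL46, MRPS17, MRPS18C and MRPS30.

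**Figure D1:**
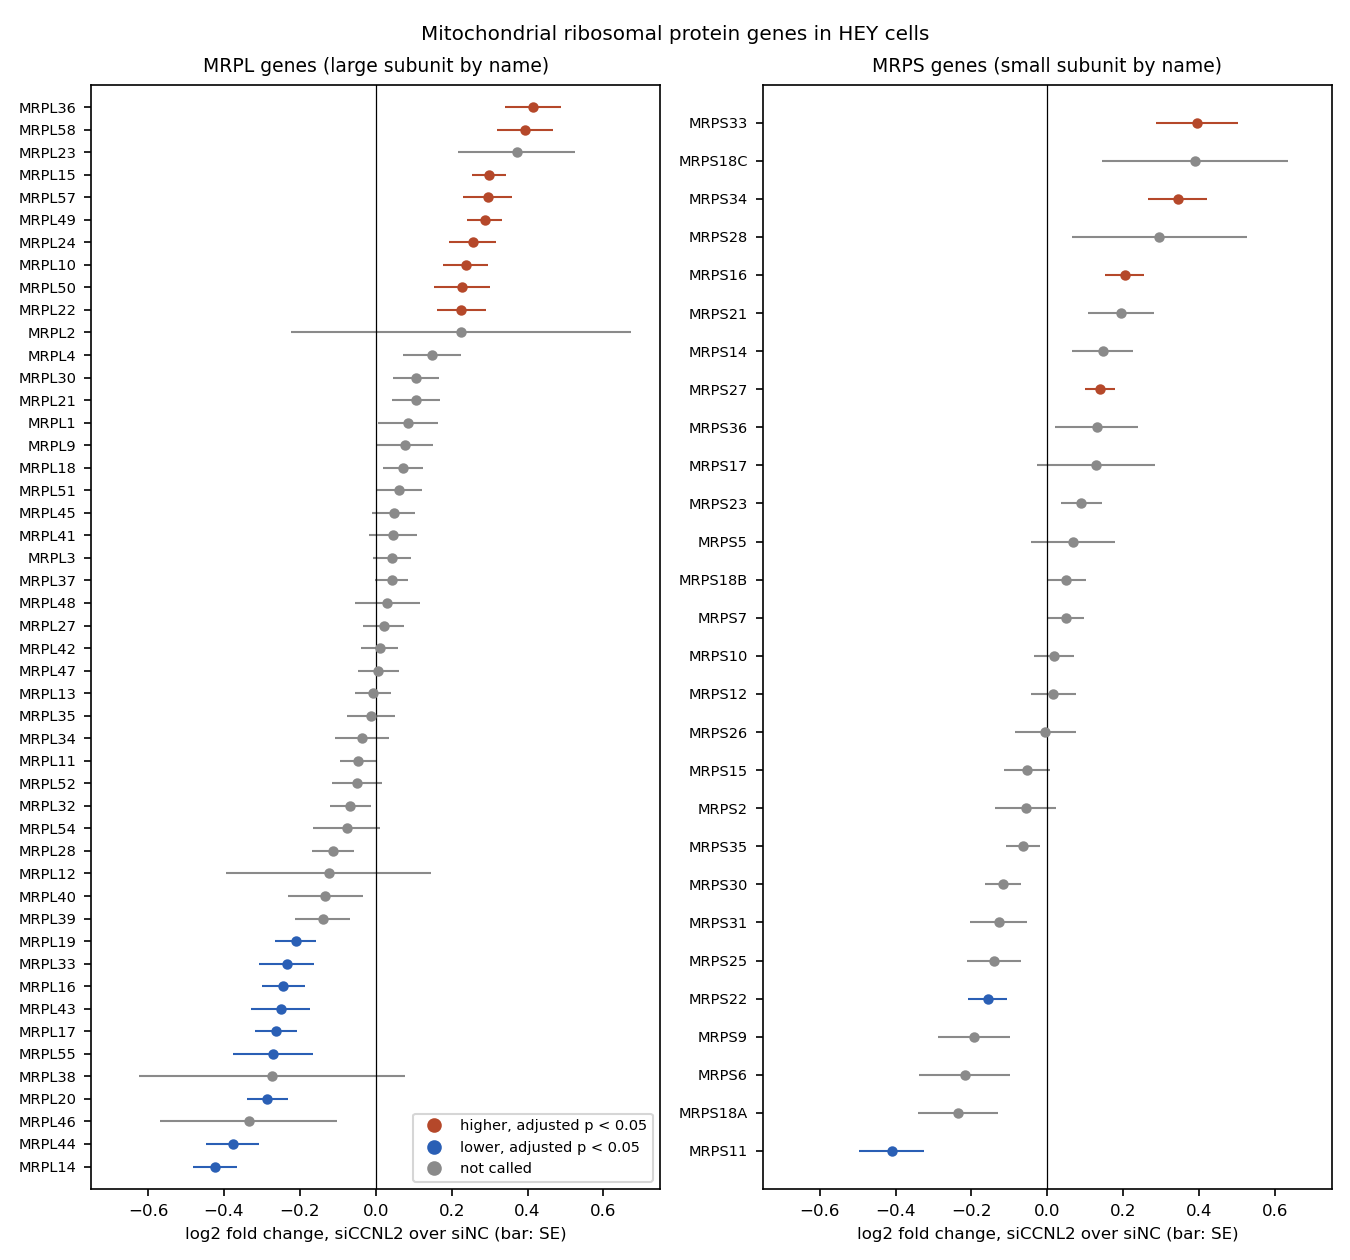
Log2 fold change (siCCNL2 over siNC, bars are standard errors) of the 48 tested MRPL genes on the left and the 28 tested MRPS genes on the right, each sorted from highest to lowest, with called genes in red (higher) or blue (lower). The MRPL panel has 9 genes called higher and 9 lower, and the MRPS panel 4 and 2, with uncalled genes such as MRPL23, MRPL46, MRPS18C and MRPS28 lying among them.

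By origin, 45 tested members with a bacterial counterpart included 6 higher and 8 lower, with a median log2 fold change of 0.02. The 30 tested members classed as mitochondria-specific, with MRPS18A and MRPS18B counted here although they derive from a bacterial protein, included 7 higher and 3 lower, with a median of 0.0029. Counts in both classes, 31.1% and 33.3% called, lay near the 33.6% of all tested genes. Names and places in the particle differ for a few members. Taken by their place in the assembled ribosome, 50 tested large-subunit proteins had 9 higher and 9 lower (36% called). The 25 tested small-subunit proteins had 4 higher and 2 lower (24% called, against 33.6% of all tested genes).

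The start regions of 5 members are shown, 4 because they mark the ends of the range and 1 for its place in the genome. MRPL36 and MRPS33 had the highest log2 fold change among called MRPL and MRPS genes, MRPL14 and MRPS11 the lowest, and MRPL20 lies next to CCNL2. Each is 250 bases before to 50 after the start in the RefSeq annotation of GRCh38.p14, 5′ to 3′ on the gene's strand. Capitals mark matches, on either strand, to CCGGAAG (an ETS core), AAGATGG (YY1-like) and TGCGCA (an NRF1 half-site, which reads the same on both strands). The regions are chr5:1799788-1800087 (minus strand) for MRPL36, chr7:141014903-141015202 (minus) for MRPS33, chr6:44127259-44127558 (minus) for MRPL14, chr15:88467458-88467757 (plus) for MRPS11 and chr1:1407244-1407543 (minus) for MRPL20. The RefSeq start lay 1529 bases from the gene's 5′ end in the deposited table for MRPL36, 276 for MRPS33, 144 for MRPL14, 255 for MRPS11 and 0 for MRPL20.
MRPL36: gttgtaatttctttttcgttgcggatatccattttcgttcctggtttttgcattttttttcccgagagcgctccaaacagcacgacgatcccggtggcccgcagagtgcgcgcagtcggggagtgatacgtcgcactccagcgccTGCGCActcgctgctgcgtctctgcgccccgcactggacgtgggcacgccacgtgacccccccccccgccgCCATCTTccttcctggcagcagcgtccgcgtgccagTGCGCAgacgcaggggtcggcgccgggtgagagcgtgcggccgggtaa
MRPS33: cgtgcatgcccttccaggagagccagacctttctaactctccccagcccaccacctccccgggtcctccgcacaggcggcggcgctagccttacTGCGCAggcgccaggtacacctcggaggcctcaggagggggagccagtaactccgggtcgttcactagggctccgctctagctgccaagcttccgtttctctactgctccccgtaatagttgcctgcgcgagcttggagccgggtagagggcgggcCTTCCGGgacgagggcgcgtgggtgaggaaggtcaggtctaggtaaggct
MRPL14: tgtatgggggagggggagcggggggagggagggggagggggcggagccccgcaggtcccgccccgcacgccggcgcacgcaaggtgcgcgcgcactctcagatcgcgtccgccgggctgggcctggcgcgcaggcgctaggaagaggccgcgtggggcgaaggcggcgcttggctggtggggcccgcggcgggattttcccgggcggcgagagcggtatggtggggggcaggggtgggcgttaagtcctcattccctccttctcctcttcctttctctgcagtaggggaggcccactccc
MRPS11: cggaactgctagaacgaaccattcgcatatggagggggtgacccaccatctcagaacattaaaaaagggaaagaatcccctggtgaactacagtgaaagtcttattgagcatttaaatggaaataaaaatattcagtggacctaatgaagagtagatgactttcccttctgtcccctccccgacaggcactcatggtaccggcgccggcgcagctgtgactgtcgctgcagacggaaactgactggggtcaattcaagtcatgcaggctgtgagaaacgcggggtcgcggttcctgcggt
MRPL20: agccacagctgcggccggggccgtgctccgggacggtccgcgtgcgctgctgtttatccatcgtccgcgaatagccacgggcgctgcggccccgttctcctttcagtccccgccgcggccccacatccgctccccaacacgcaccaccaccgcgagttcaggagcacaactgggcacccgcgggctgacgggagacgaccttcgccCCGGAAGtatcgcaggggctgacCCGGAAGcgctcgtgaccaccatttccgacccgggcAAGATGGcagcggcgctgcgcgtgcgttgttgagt

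MRPL36 held a pair of NRF1 half-sites and a YY1-like match, MRPS33 an NRF1 half-site and an ETS core, and MRPL20 a pair of ETS cores and a YY1-like match. The windows of MRPL14 and MRPS11 held none of these letters. Windows were found for 69 of the 78 members, for 10751 tested genes and for 27305 genes in all. AAGATGG was in 23 member windows (33.3%), against 7.49% of windows of tested genes and 6.08% of all windows. CCGGAAG was in 29 member windows (42.0%), against 19.0% of tested genes and 10.7% of all. CCGGAAG and AAGATGG can share the letters AAG where they adjoin. TGCGCA was in 14 member windows (20.3%), against 13.4% of tested genes and 8.46% of all. The YY1-like and NRF1 letters are shortened forms, adopted after longer forms of both motifs had been searched and their values seen. The longer NRF1 form was about as frequent in member windows as in those of tested genes. The excess of TGCGCA therefore depends on which letters are searched. The window of MRPL14 held a match to the longer NRF1 form, though none to TGCGCA. The longer YY1-like form was in fewer member windows, again a larger share than in tested genes. Too few called members held it for their direction, higher in each, to be read as a pattern. GGGCGG (an SP1-like box), CACGTG (an E-box) and TATAAA were in 59.4%, 10.1% and 2.90% of member windows, against 69.6%, 9.82% and 5.66% of tested genes and 44.7%, 7.42% and 12.02% of all windows. AAGATGG mostly lay at or after the start: 7 member windows (10.1%) held it wholly before the start, against 3.53% of tested genes, while CCGGAAG lay wholly before the start in 33.3% of member windows and 15.8% of tested genes.

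Members with the YY1-like letters, the ETS core or the NRF1 half-site were called in both directions. Of 22 tested members with AAGATGG, 6 were higher (MRPL22, MRPL36, MRPL49, MRPL50, MRPS16 and MRPS27) and MRPL20 was lower (31.8% called, against 33.6% of all tested genes), and the median log2 fold change was 0.02. Of 28 tested members with CCGGAAG, 4 were higher (MRPL58, MRPS16, MRPS33 and MRPS34) and 5 lower (MRPL16, MRPL20, MRPL33, MRPL43 and MRPS22), which is 32.1% called, with a median of 0.01. Of 14 with TGCGCA, MRPL22, MRPL36, MRPL57 and MRPS33 were higher and MRPL17 was lower (35.7% called), with a median of 0.05. All 3 shares lay near that of all tested genes, of which 17.2% were higher and 16.5% lower. The uneven split by direction with AAGATGG and TGCGCA was not tested. A match to these letters is a description of the window and not evidence of binding.

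Genes for proteins around the exit tunnel included some called in each direction. Of the 7 tested genes of the tunnel exit and membrane anchor (MRPL17, MRPL22, MRPL23, MRPL24, MRPL44, MRPL45 and MRPL47), 2 were higher and 2 lower (57.1% called, against 33.6% of all tested genes), and MRPL23, MRPL45 and MRPL47 were not called. MRPL44, a mitochondria-specific protein with an RNase III-like fold beside the tunnel exit, stood at 36.4, 39.6 and 32.1 CPM in siCCNL2 libraries, against 45.7, 46.3 and 48.0 CPM in siNC libraries. MRPL17 (bL17), a bacterial-type protein of the tunnel exit, stood at 50.1, 53.2 and 51.5 CPM in siCCNL2 libraries, against 59.5, 63.2 and 63.0 CPM in siNC libraries. Every siCCNL2 library lay below every siNC library for both genes, with log2 fold changes of -0.38 (SE 0.069, adjusted p = 1.21e-04) for MRPL44 and -0.26 (SE 0.055, adjusted p = 5.31e-04) for MRPL17. MRPL24 (uL24) went the other way, at 60.3, 57.5 and 54.5 CPM in siCCNL2 libraries, against 44.2, 50.8 and 49.5 CPM in siNC libraries (log2 fold change 0.26, SE 0.062, adjusted p = 0.0022). MRPL22 (uL22), which lines the tunnel, was higher by 0.23 (SE 0.065, adjusted p = 0.0088). MRPL45, which anchors the ribosome at the inner membrane, showed a log2 fold change of 0.05 (adjusted p = 0.566).

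MRPL23 (uL23), also at the tunnel exit, is given because 1 library decides its value, a choice made after its values were seen. It stood at 28.1, 24.6 and 28.1 CPM in siCCNL2 libraries, against 14.4, 17.9 and 30.6 CPM in siNC libraries. The siNC replicate 3 value lay above all siCCNL2 values and the other siNC values below them. The log2 fold change was 0.37 (adjusted p = 0.0687) over all libraries and 0.75 (adjusted p = 3.62e-06) without siNC replicate 3, both by edgeR. It was also called with no count filter (adjusted p = 2.1e-04) and by limma-voom (0.0269).

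MRPL14 had the largest fall of all members. MRPL14 (ENSG00000180992; chromosome 6, 44113451 to 44127452, minus strand, GRCh38), or uL14, is a bacterial-type protein of the face that meets the small subunit, where the anti-association factor MALSU1 docks during assembly. It stood at 51.2, 48.5 and 45.6 CPM in siCCNL2 libraries, against 64.2, 68.2 and 62.8 CPM in siNC libraries, with a log2 fold change of -0.42 (SE 0.058, adjusted p = 3.1e-06). MRPL19 (bL19), also near the subunit interface, stood at 65.9, 70.1 and 66.5 CPM in siCCNL2 libraries, against 74.6, 76.9 and 82.6 CPM in siNC libraries (log2 fold change -0.21, SE 0.053, adjusted p = 0.0032). MRPL16 (uL16), which sits near the transfer RNA sites, stood at 46.1, 46.5 and 47.1 CPM in siCCNL2 libraries, against 56.6, 55.0 and 53.6 CPM in siNC libraries (log2 fold change -0.24, SE 0.055, adjusted p = 0.0013). For all 3 genes the groups were apart, and for MRPL16 the siCCNL2 libraries were the most tightly grouped.

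MRPL33 (bL33), MRPL43 and MRPL55 were lower by less certain margins. MRPL43 is a mitochondria-specific protein of the large subunit. Their log2 fold changes were -0.23 for MRPL33 (adjusted p = 0.0145), -0.25 for MRPL43 (adjusted p = 0.015) and -0.27 for MRPL55 (adjusted p = 0.0491). All 3 calls were lost without siCCNL2 replicate 1, at adjusted p = 0.121, 0.0778 and 0.2002 for MRPL33, MRPL43 and MRPL55. The MRPL33 call was also lost without siNC replicate 2 (0.073), and the MRPL43 call without siCCNL2 replicate 3 (0.0899) or siNC replicate 3 (0.0549). The MRPL55 call was also lost without siCCNL2 replicate 2 (0.0552) or 3 (0.069), without siNC replicate 2 (0.1004) or 3 (0.177), with no count filter (0.086), by the DESeq2 Wald test (0.112) and by limma-voom (0.0508).

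Among called genes, the largest rises in the large subunit were in MRPL36, MRPL58, MRPL15, MRPL57 and MRPL49. MRPL36 (ENSG00000171421; chromosome 5, 1798385 to 1801366, minus strand), or bL36, a small zinc-binding protein of bacterial type, stood at 29.4, 29.5 and 32.1 CPM in siCCNL2 libraries, against 22.3, 23.6 and 22.3 CPM in siNC libraries. MRPL58 (also ICT1), which is related to peptide release factors and built into the central protuberance, stood at 30.0, 29.1 and 28.8 CPM in siCCNL2 libraries, against 21.9, 22.1 and 23.0 CPM in siNC libraries. The groups were apart for both, with log2 fold changes of 0.41 (SE 0.075, adjusted p = 1.08e-04) for MRPL36 and 0.39 (SE 0.074, adjusted p = 1.64e-04) for MRPL58. Of 6 tested central protuberance genes, MRPL58 alone was called (16.7%, against 33.6% of all tested genes). MRPL18, MRPL38, MRPL40, MRPL46 and MRPL48 were not called, MRPL38 and MRPL46 at only 23 and 39.5 counts per library on average.

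MRPL15 (uL15), a core protein that binds the ribosomal RNA, had the smallest p of the higher members. It stood at 132, 136 and 137 CPM in siCCNL2 libraries, against 104, 109.5 and 115 CPM in siNC libraries (log2 fold change 0.30, SE 0.045, adjusted p = 1.23e-05). MRPL49, a mitochondria-specific protein, stood at 106, 104 and 104 CPM in siCCNL2 libraries, against 84.2, 86.1 and 87.4 CPM in siNC libraries (log2 fold change 0.29, SE 0.045, adjusted p = 2.16e-05). MRPL57, also mitochondria-specific, stood at 49.9, 59.4 and 54.1 CPM in siCCNL2 libraries, against 42.1, 45.2 and 45.5 CPM in siNC libraries (log2 fold change 0.30, SE 0.065, adjusted p = 8.8e-04). No siCCNL2 library of these 3 genes lay below a siNC library. MRPL10 (uL10), which carries the stalk that recruits translation factors, was higher by 0.24 (SE 0.06, adjusted p = 0.0032). The stalk proteins MRPL11 and MRPL12 were not called, MRPL12 at only 34.8 counts per library on average. Of these 3 genes 33.3% were called, against 33.6% of all tested genes. MRPL1, of the L1 stalk, showed a log2 fold change of 0.08 (adjusted p = 0.445). MRPL50, a mitochondria-specific protein, was higher by 0.23 (adjusted p = 0.0199), a call that was lost without siCCNL2 replicate 1 (0.102), without siNC replicate 2 (0.108), by the DESeq2 Wald test (0.0507) and on the authors' score plus 1 or plus 0.1 (0.0694 and 0.0677, limma).

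**Figure D2:**
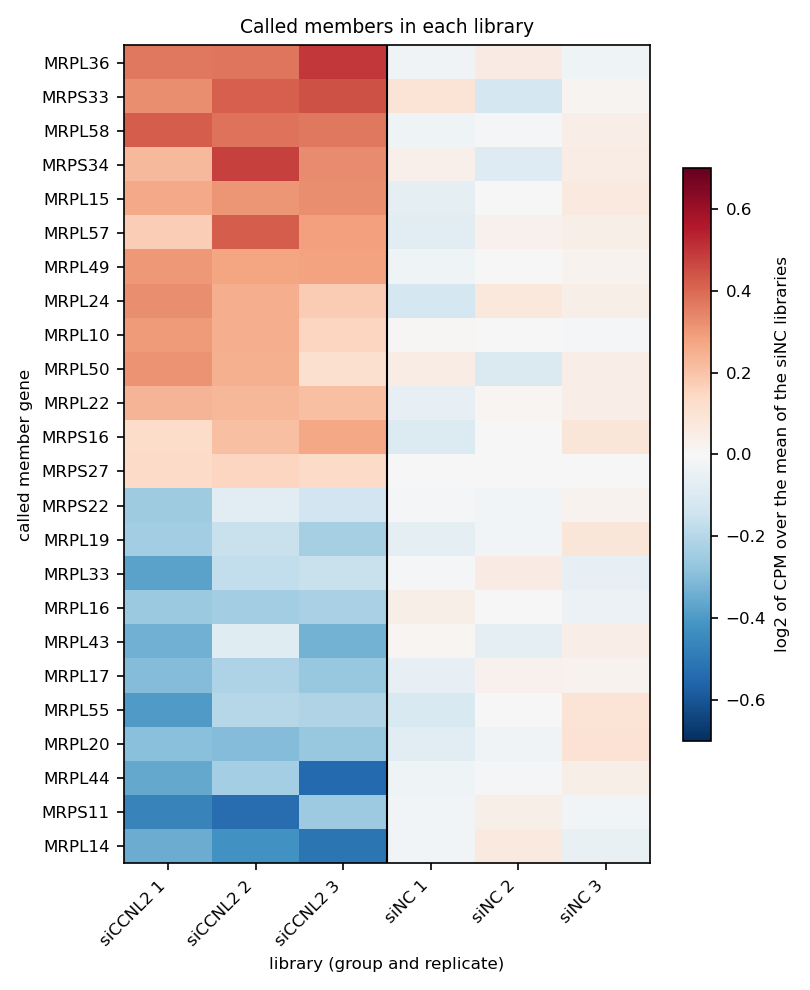
Log2 of CPM in each library over the mean of the 3 siNC libraries, as colour, for the 24 called members (rows, highest log2 fold change at the top), with siCCNL2 libraries on the left of the black line and siNC libraries on the right. Rows from MRPL36 to MRPS27 are red in all 3 siCCNL2 libraries and rows from MRPS22 to MRPL14 are blue in all 3.

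In the small subunit, 1 of 7 tested head genes and 5 of 18 tested body and platform genes were called (14.3% and 27.8%, against 33.6% of all tested genes). MRPS33 (ENSG00000090263; chromosome 7, 141002610 to 141015228, minus strand), a mitochondria-specific head protein, stood at 13.3, 14.2 and 14.4 CPM in siCCNL2 libraries, against 11.3, 9.73 and 10.7 CPM in siNC libraries (log2 fold change 0.39, SE 0.11, adjusted p = 0.0059). MRPS34, a mitochondria-specific body protein needed for a stable small subunit, stood at 30.2, 35.9 and 32.4 CPM in siCCNL2 libraries, against 26.5, 24.2 and 26.7 CPM in siNC libraries (log2 fold change 0.34, SE 0.077, adjusted p = 0.0011). MRPS16 (bS16), a bacterial-type body protein, stood at 111, 118 and 123 CPM in siCCNL2 libraries, against 95.4, 102 and 108 CPM in siNC libraries (log2 fold change 0.20, SE 0.051, adjusted p = 0.003). These genes were higher in every siCCNL2 library than in any siNC library, narrowly so for MRPS16. MRPS27, a mitochondria-specific protein of the PPR family, had the smallest change of the called members. It stood at 158, 160.5 and 159 CPM in siCCNL2 libraries, against 144, 145 and 145 CPM in siNC libraries (log2 fold change 0.14, SE 0.039, adjusted p = 0.0078).

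MRPS11 and MRPS22 were lower. MRPS11 (ENSG00000181991; chromosome 15, 88467453 to 88480776, plus strand), or uS11, a bacterial-type platform protein, stood at 18.0, 17.2 and 20.9 CPM in siCCNL2 libraries, against 24.6, 25.6 and 24.6 CPM in siNC libraries (log2 fold change -0.41, SE 0.086, adjusted p = 5.58e-04). MRPS22, a mitochondria-specific protein whose mutations cause a neonatal mitochondrial disease, stood at 71.1, 79.9 and 77.0 CPM in siCCNL2 libraries, against 84.2, 83.5 and 86.1 CPM in siNC libraries (log2 fold change -0.16, SE 0.052, adjusted p = 0.0206). Neither gene's groups overlapped. The MRPS22 call was lost without siCCNL2 replicate 1 (adjusted p = 0.155 by edgeR) or 3 (0.0514), and without siNC replicate 1 (0.0516) or 3 (0.0633). The exact two-sided permutation p was 0.1 for each of the 24 called members, the smallest that 3 against 3 libraries can give.

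Several MRPS names do not say where the protein is. MRPS18A, MRPS18B and MRPS18C descend from 1 bacterial protein, and MRPS18A is found in the large subunit, as is MRPS30. MRPS36 is now known as a component of the oxoglutarate dehydrogenase complex and not of the ribosome. MRPS18A stood at 11.6, 14.9 and 13.1 CPM in siCCNL2 libraries, against 14.8, 15.7 and 15.8 CPM in siNC libraries, with overlap through siCCNL2 replicate 2. Its log2 fold change was -0.24 (adjusted p = 0.0923), and it was -0.32 (adjusted p = 0.0315) without that library. MRPS18B showed a log2 fold change of 0.05 (adjusted p = 0.50), MRPS18C 0.39 (adjusted p = 0.243), MRPS30 -0.12 (adjusted p = 0.0669) and MRPS36 0.13 (adjusted p = 0.397). None of the 5 was called, MRPS18C at 2.60 ± 0.270 CPM in siCCNL2 and 1.98 ± 0.264 CPM in siNC libraries (mean ± SD, n = 3 each) where a change of that size was not detectable at this depth. MRPS30 passed the threshold with upper-quartile factors (log2 fold change -0.13, adjusted p = 0.0338).

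Levels between genes were compared on the authors' deposited score, which takes gene length into account and sums to the same total in every library. MRPL37, a mitochondria-specific protein, was the most abundant member, averaging 420 in siCCNL2 and 411 in siNC libraries, and MRPL51 followed at 401 and 387. MRPS35, a head protein, was the most abundant MRPS gene, at 228 ± 6.95 in siCCNL2 and 240.4 ± 3.89 in siNC libraries (SD, n = 3 each). The median member scored 69.9. At the other end, MRPL53 had 0 counts in all 6 libraries, which allows up to 3 counts in each. MRPS24 (uS3 family), a head protein, had 9, 7 and 2 counts in siCCNL2 libraries and 5, 10 and 9 counts in siNC libraries, and both genes were too low to test. MRPL46, MRPL2, MRPS18C and MRPL38 also scored below 5.

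Levels were set beside shared exon bases, as a description with no test. In GENCODE release 29 on GRCh38, 37 members share no exon base with another gene, and their median score was 79.0. The other 41 share some, and their median score was 43.9. In 10 members over 10% of exon bases lie in a gene on the same strand, and their median score was 7.85, against 73.7 in the other 68. MRPL12 shares 68.2% with AC139530.2, MRPL53 shares 45.2% with CCDC142, MRPL38 shares 37.5%, MRPS28 shares 35.8%, MRPS17 shares 27.0%, and MRPS24 shares 23.2% with the readthrough gene URGCP-MRPS24. Others with sharing had high levels: MRPL33 and MRPL20, with 21.1% and 10.5% on the same strand, scored 136 and 121, and MRPL51, with 31.3% on the opposite strand, scored 394. The handling of reads in shared exons is not given in the sources used here. Levels of these members are therefore uncertain, and the part of the counting in them was not tested.

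**Figure D3:**
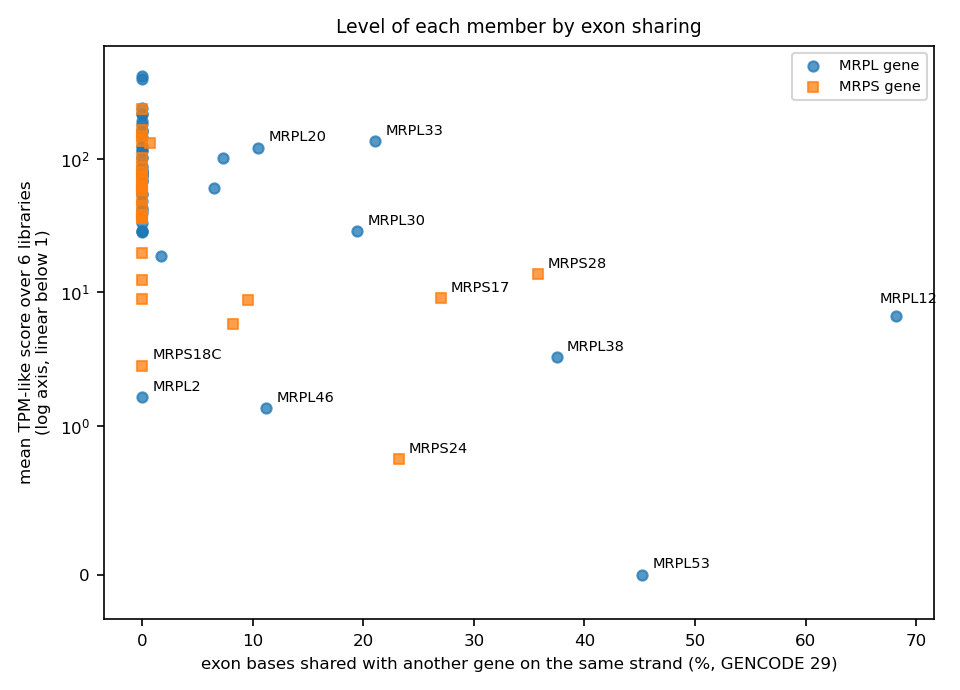
Mean score over the 6 libraries (vertical, logarithmic above 1 and linear below) against the percentage of a member's exon bases that lie in another gene on the same strand (horizontal), for MRPL genes (circles) and MRPS genes (squares). MRPL12, MRPL38, MRPL46, MRPL53, MRPS17, MRPS24 and MRPS28 sit low with sharing over 10%, MRPL33, MRPL20 and MRPL30 sit higher, and MRPL2 and MRPS18C sit low with no sharing on the same strand.

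Called members were also split by shared exons. Among the 37 members without a shared exon base, 10 were higher and 4 lower (37.8% called), and among the 39 tested members with one, 3 were higher and 7 lower (25.6% called, against 33.6% of all tested genes). The higher ones with shared bases were MRPL49, MRPS16 and MRPS27, and the lower ones were MRPL19, MRPL20, MRPL33, MRPL43, MRPL44, MRPS11 and MRPS22. MRPL49 shares 12.2% of its exon bases, on the opposite strand, with SYVN1 and FAU, and MRPL43 shares 36.9%, most of it with SEMA4G. SYVN1 was lower by 0.34 on the log2 scale (adjusted p = 3.72e-04 by edgeR), opposite to MRPL49, and SEMA4G, at 1.77 CPM in siCCNL2 and 2.44 CPM in siNC libraries, was not called. MRPL33 shares 21.1% on its own strand with BABAM2, which showed a log2 fold change of 0.19 (adjusted p = 0.123). MRPL14, MRPL16, MRPL17, MRPL15, MRPL36, MRPL58, MRPL57, MRPS33 and MRPS34 share no exon base. The use of strand in counting is not given in the sources used here, and reads of overlapping genes therefore cannot be told apart.

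MRPL20 (bL20), whose counterpart in Escherichia coli binds ribosomal RNA early in assembly, is the member nearest to CCNL2. It lies on chromosome 1 at 1401909 to 1407293 (GRCh38, minus strand), 2573 bases from CCNL2 at 1385711 to 1399335, with its start 7958 bases upstream of that of CCNL2. It stood at 59.8, 59.4 and 61.0 CPM in siCCNL2 libraries, against 69.2, 72.0 and 78.6 CPM in siNC libraries (log2 fold change -0.29, SE 0.055, adjusted p = 2.39e-04). The siCCNL2 libraries were tightly grouped and all lay below the siNC libraries. AURKAIP1, a mitochondria-specific small-subunit protein (mS38) named outside the MRP scheme, lies 10503 bases beyond the other end of CCNL2. It stood at 93.5, 109 and 99.4 CPM in siCCNL2 libraries, against 111, 126 and 122 CPM in siNC libraries (log2 fold change -0.25, SE 0.055, adjusted p = 8.04e-04).

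Other tested genes with a start within 50000 bases of that of CCNL2 did not share this direction, a window chosen after the values were seen. MRPL20-AS1, which starts 180 bases from CCNL2 on the other strand and overlaps MRPL20, averaged 20.9 CPM in siCCNL2 and 20.4 CPM in siNC libraries (log2 fold change 0.04, adjusted p = 0.78). MRPL20-DT showed a log2 fold change of 0.29 (adjusted p = 0.182) and MXRA8 0.14 (adjusted p = 0.744). DVL1, a Wnt signalling protein, was higher by 0.12 (adjusted p = 0.013). CCNL2 itself had -0.44 (SE 0.044, adjusted p = 2.15e-08). MRPL20 shares 10.5% of its exon bases on its strand with RN7SL657P and 15.5% in all, and the part of its position in its fall was not tested.

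**Figure D4:**
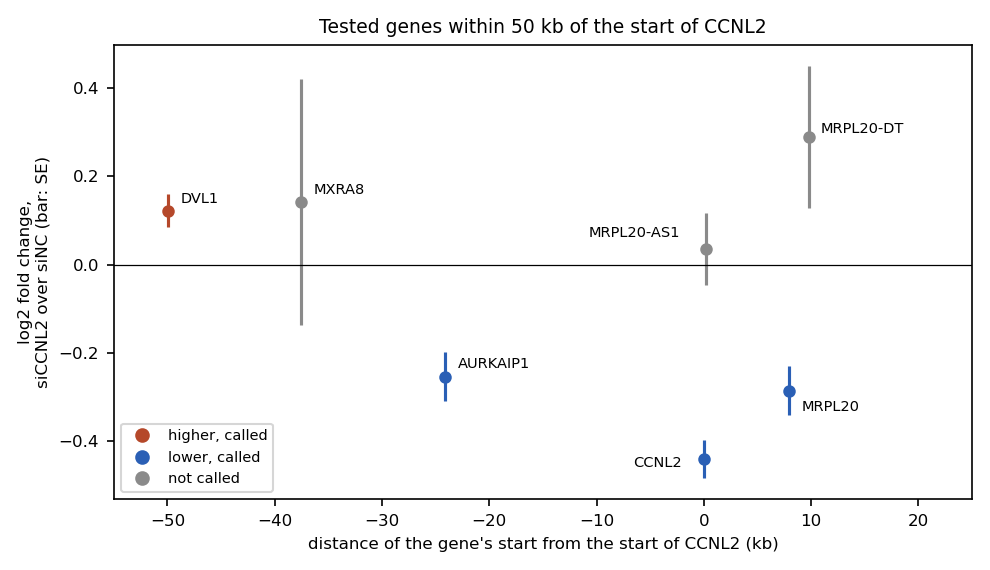
Log2 fold change (siCCNL2 over siNC, bars are standard errors) of the 7 tested genes whose start lies within 50 kb of that of CCNL2, against the distance of their starts in kb. CCNL2, MRPL20 and AURKAIP1 are called lower, DVL1 is called higher and MRPL20-AS1, MRPL20-DT and MXRA8 are not called.

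Summed over members, the groups differed by less than 1 SD in either subunit. The MRPL genes summed to a score of 4901 ± 80.9 in siCCNL2 and 4865 ± 80.1 in siNC libraries (mean ± SD, n = 3 each). The MRPS genes summed to 1794 ± 48.2 in siCCNL2 and 1773 ± 26.6 in siNC libraries. The ratio of the sums was 2.73 ± 0.041 in siCCNL2 and 2.74 ± 0.022 in siNC libraries. Within the siCCNL2 group, replicate 2 stood above the others in both subunits: the median log2 ratio of its members to the siNC mean was 0.11 in MRPL and in MRPS genes, against -0.04 and -0.04 in replicate 1 and -0.01 and -0.02 in replicate 3. Replicate 2 had the fewest counts and the largest share of mitochondrial transcripts, 3.77% against 3.43% and 3.47% in the other siCCNL2 libraries and 3.22% to 3.39% in siNC libraries. The part of depth in this was not tested.

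Reads of the ribosomal RNAs that these proteins bind were higher on average, with a call that depended on the libraries. The library kit is not given in the sources used here, and the part of library preparation in these values was not tested. MT-RNR1, the 12S rRNA of the small subunit, stood at 2283, 2357 and 2133 CPM in siCCNL2 libraries, against 1726, 1661 and 2280 CPM in siNC libraries. MT-RNR2, the 16S rRNA of the large subunit, stood at 7237, 8168 and 7451 CPM in siCCNL2 libraries, against 6084, 5469 and 7575 CPM in siNC libraries. The groups overlapped for both through siNC replicate 3. The log2 fold change was 0.26 for MT-RNR1 (adjusted p = 0.0049) and 0.26 for MT-RNR2 (adjusted p = 0.0039), and 0.42 and 0.40 without siNC replicate 3. The calls were lost by the DESeq2 Wald test (adjusted p = 0.235 for MT-RNR1 and 0.219 for MT-RNR2), by limma on the score plus 1 (0.0978 and 0.0924) or plus 0.1 (0.0946 and 0.0877), and without siNC replicate 2 (0.0795 and 0.0631).

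**Figure D5:**
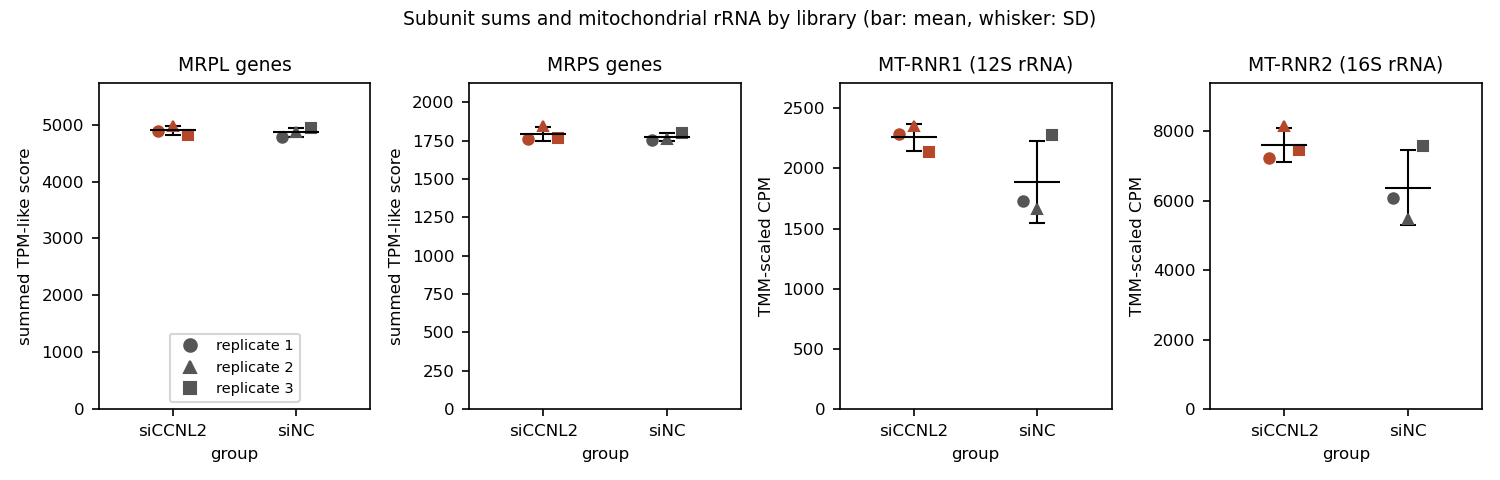
Values in each library (points, shaped by replicate number), with mean (bar) and SD (whisker), siCCNL2 left of siNC: summed score of MRPL and of MRPS genes, and CPM of MT-RNR1 and MT-RNR2. The sums overlap between groups (4901 and 4865 on average for MRPL genes), and siNC replicate 3 lies among the siCCNL2 libraries for both rRNAs.

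Other genes of mitochondrial translation were read from lists chosen for their roles. Of 5 ribosomal subunits with other names, PTCD3 and AURKAIP1 were lower, and DAP3, CHCHD1 and GADD45GIP1 were not called (40% called, against 33.6% of all tested genes); the median log2 fold change was -0.10. PTCD3, a PPR-family protein at the messenger RNA entrance, stood at 77.5, 77.8 and 75.7 CPM in siCCNL2 libraries, against 96.3, 93.2 and 91.2 CPM in siNC libraries (log2 fold change -0.28, SE 0.047, adjusted p = 4.99e-05). Of 29 tested assembly factors, 3 were higher and 3 lower (20.7% called, against 33.6% of all tested genes; median -0.02). RCC1L, which works with pseudouridine synthases on the 16S rRNA, had the largest change of these lists. It stood at 44.6, 43.9 and 43.8 CPM in siCCNL2 libraries, against 26.7, 25.8 and 25.4 CPM in siNC libraries (log2 fold change 0.76, SE 0.064, adjusted p = 1.2e-09).

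The pseudouridine synthases themselves went opposite ways: RPUSD4 was higher by 0.22 (adjusted p = 0.0121, lost without siNC replicate 2 at 0.0797) and TRUB2 showed a log2 fold change of -0.25 (adjusted p = 0.0015). TRMT2B, an RNA methyltransferase, was higher by 0.23 (adjusted p = 0.0105, lost without siNC replicate 2 at 0.0591). DHX30, an RNA helicase, showed a log2 fold change of -0.25 (adjusted p = 3.2e-05). MALSU1, which docks on MRPL14, had -0.24 (adjusted p = 0.0388), a call that was lost in 8 of 16 alternatives at the same threshold, among them each of 4 left-out libraries: siCCNL2 replicate 1 (0.124) or 2 (0.0894) and siNC replicate 1 (0.1996) or 2 (0.0681).

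Of 15 tested translation factors, 2 were higher and 2 lower (26.7% called, against 33.6% of all tested genes), with a median log2 fold change of 0.08. MTIF2, the initiation factor, was higher by 0.20 (adjusted p = 0.0099), and MRRF, the recycling factor, by 0.18 (adjusted p = 0.0169, lost without siCCNL2 replicate 3 at 0.134, without siNC replicate 2 at 0.0724 and on the score plus 1 or 0.1 at 0.178 and 0.172). OXA1L, the inner-membrane insertase that receives the new chains, had -0.25 (adjusted p = 4.38e-05), and GFM1, an elongation factor, -0.16 (adjusted p = 0.0038). Of 18 tested genes of mitochondrial transcription and RNA stability, 0 were higher and 4 lower (22.2% called, all lower, against 16.5% of all tested genes called lower and 17.2% higher; median -0.09). PNPT1, an RNA-degrading enzyme, had -0.20 (adjusted p = 0.0028), POLRMT, the RNA polymerase, -0.19 (adjusted p = 0.0091), TFAM, which packages mitochondrial DNA and starts transcription, -0.14 (adjusted p = 0.0128), and MTERF1 -0.33 (adjusted p = 0.0333). The POLRMT and TFAM calls were lost without siCCNL2 replicate 1 (0.0522 and 0.0946) or siNC replicate 2 (0.0821 and 0.0666), and that of TFAM also without siNC replicate 1 (0.0545).

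Of 10 regulators of nuclear genes for mitochondrial proteins, 4 were higher and 1 lower (50% called, against 33.6% of all tested genes; median 0.11). YY1 stood at 202, 209 and 210.2 CPM in siCCNL2 libraries, against 174, 167 and 167 CPM in siNC libraries (log2 fold change 0.29, SE 0.039, adjusted p = 2.6e-06). GABPB2, a subunit of the ETS-type factor GABP, stood at 16.1, 15.96 and 18.1 CPM in siCCNL2 libraries, against 12.1, 10.2 and 10.04 CPM in siNC libraries (log2 fold change 0.63, SE 0.11, adjusted p = 5.64e-05). The groups were apart for both. The coactivators PPRC1 and PPARGC1B were higher by 0.12 (adjusted p = 0.028) and 0.15 (adjusted p = 0.0423), and ESRRA had -0.14 (adjusted p = 0.0302). The PPRC1 call was lost without siCCNL2 replicate 1 (0.1196), siNC replicate 1 (0.0912) or siNC replicate 3 (0.0657), with upper-quartile factors (0.0628), with no count filter (0.0669) and on the score plus 1 or 0.1 (0.114 and 0.116), and that of ESRRA in each leave-one-out fit except the one without siNC replicate 1 (0.0587 to 0.095), with no count filter (0.0607) and by the DESeq2 Wald test (0.0615). NRF1, GABPA, GABPB1, PPARGC1A and MYC were not called.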

How the data were processed

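RNA of 3 siCCNL2 and 3 siNC libraries of HEY cells was sequenced, and the genotype label gave the groups. The authors deposited raw read counts per gene as whole numbers. They also deposited a score per gene, close to TPM in form, in which counts are divided by gene length, and it was used for levels between genes. Per the submitters' processing notes, fastp 0.23.0, HISAT2, HTSeq 2.0.1 and GRCh38 were used, in roles that are not stated. Annotation, library kit and strand setting are not given in the sources used here.

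From 62710 rows, 60835 distinct names were kept, since repeated names carried identical values. After filterByExpr, 15346 genes were scaled with TMM factors and tested with edgeR 4.0.16 in R 4.3.3 (estimateDisp, glmQLFit and glmQLFTest with the group alone). Standard errors are the absolute log2 fold change divided by the root of F. Among called members, precision follows mean counts per library, from 196 for MRPS33 to 2428 for MRPS27. Libraries of a group differed by 2.20 to 3.66 times the sampling noise, and each was counted separately. The procedure was tested on simulated data.

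The members, the companion lists and the roles were chosen with earlier results of these data known. Each subunit is described by counts and medians beside those of all tested genes, with no test of the list. For each subunit and direction the 6 called members with the smallest p are given in every library, with the most and least abundant members, MRPS18A, MRPS18B, MRPS18C, MRPS30, MRPS36 and up to 3 called genes per direction from each companion list. MRPL23, MTERF1, PPARGC1B, the genes near CCNL2 and the partners at shared starts or exons were chosen after their values were seen. GTPBP5, GTPBP7 and FASTKD4 are other names of listed genes, and TSFM and MRM2, at 6.33 and 3.83 counts on average, were too low to test. One marker gene is not reported here. Shared exon bases come from GENCODE 29 on GRCh38 and start regions from RefSeq on GRCh38.p14. Alternatives were DESeq2 1.42.0 size factors and Wald test, upper-quartile and no composition factors, no filter, a filter of 1 CPM in 3 libraries, limma 3.58.1 (voom, and trend on log2 scores with 1 or 0.1 added), a threshold of 0.01, removal of a length trend, subunits by structure, leaving out each library, and a replicate block. Omitting members with shared exon bases was added after the data were seen.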

Additional observations from a re-analysis of the deposited data

How the results depend on the processing

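Of the 24 called members, 19 kept their call and direction under all 16 alternatives at the 0.05 threshold, and 19 were called at 0.01. MRPL33, MRPL43, MRPL50, MRPL55 and MRPS22 lost it in at least 1. Of 140 counts and medians recomputed, 133 stayed within 1.5 times the reported count or moved by less than the spread between siCCNL2 libraries. For medians that spread was wide beside the reported values, with MRPL medians of -0.04, 0.11 and -0.01 in the siCCNL2 libraries. A median that changed sign was therefore still counted as unmoved, and these passes say little. The large-subunit median, near 0 throughout, was -0.0023 with upper-quartile factors, -0.01 without siCCNL2 replicate 2 and -0.0044 without siNC replicate 2. At 0.01, 7 members were called lower, 1 of them small-subunit. Leaving out each library gave 12 to 14 members higher and 7 to 11 lower, the lowest without siCCNL2 replicate 1. Large-subunit members ran from 8 to 10 higher and 6 to 9 lower, and small-subunit members from 4 to 5 higher and 1 to 3 lower, with 1 lower without siCCNL2 replicate 1 or 3 or siNC replicate 1 or 3. The median log2 fold change then ran from -0.01 to 0.04 (large) and from 0.02 to 0.05 (small). With replicate number as a block, the fit gave 14 members higher and 11 lower, adding MRPL23 (log2 fold change 0.41, adjusted p = 0.0106 by edgeR). Deviations of libraries with the same number correlated at r = 0.0432, 0.023 and 0.0257, and those with different numbers at -0.03 to 0.0048. All values were near 0, but each same-number value lay above every other. The block fit called 5234 genes in all, against 5159 as reported. Pairing by number is therefore not settled, and the reported fit left the libraries unpaired because the labels do not state a pairing. Without members that share exon bases the medians were 0.05 and 0.03, and without a length trend 0.01 and 0.02. Over all genes the DESeq2 Wald test called 4250 and the score plus 1 called 4209, against 5159 as reported. Depth limits MRPL2, MRPL12, MRPL38, MRPL46, MRPS17, MRPS18C and MRPS28, at under 90 counts per library on average.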

Other observations

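Many members start close to another gene on the opposite strand. In the RefSeq annotation, 22 members have such a partner start within 1000 bases, and 19 of these have a partner that was tested. Of those partners, 5 were called by edgeR (26.3%, against 33.6% of all tested genes): SKA3, CYB5RL, NCAPD2, APBA3 and MRPS11. MRPS11 and MRPL46, both members, start 320 bases apart. MRPL46, a central protuberance protein, stood at 1.98, 2.31 and 2.29 CPM in siCCNL2 libraries, against 2.48, 2.97 and 2.82 CPM in siNC libraries (log2 fold change -0.34, adjusted p = 0.294), and was not called at this depth, while MRPS11 was lower by 0.41 on the log2 scale. MRPL57 and SKA3, a kinetochore protein, start 106 bases apart and were both higher (0.30, adjusted p = 8.8e-04, and 0.17, adjusted p = 0.0135). MRPL49, MRPL50 and MRPS27 were also called higher, and their partners were not called. The log2 fold changes of those partners were 0.05 for FAU (adjusted p = 0.681 by edgeR), -0.0036 for ZNF189 (0.981) and -0.10 for PTCD2 (0.406). MRPL51 and NCAPD2, a condensin subunit, start 840 bases apart, and NCAPD2 was higher (631 CPM in siCCNL2 and 509 CPM in siNC libraries, log2 fold change 0.31, adjusted p = 3.4e-08), while MRPL51 had 0.06 (adjusted p = 0.446). MRPL37 had 0.04 (adjusted p = 0.492), while CYB5RL, which starts 137 bases from it, was higher by 0.68 (adjusted p = 1.14e-04).

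Pseudogenes of the members took few reads. Of 80 names of MRPL or MRPS pseudogenes, 50 had 0 counts in all libraries, and together they held 1123 counts, 0.304% of the 369288 counts of the members. MRPL45P2 held 7.59% of the counts of MRPL45 and MRPS31P5 4.56% of those of MRPS31, and neither MRPL45 nor MRPS31 was called. MRPL53P1 averaged 4 counts in siCCNL2 and 6.33 counts in siNC libraries, while MRPL53 itself had 0 counts in all libraries.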
